A study of Mus musculus with 6 samples.

Results

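Epithelial cells are held together by E-cadherin and can pass to a mesenchymal state, in which N-cadherin and vimentin are made and a small set of repressors is active. This epithelial-mesenchymal transition (EMT) occurs at gastrulation, when epiblast cells leave the epithelium at the primitive streak. Mouse embryonic stem cells grow as compact, E-cadherin-rich colonies. The SNAI, ZEB and TWIST families of transcription factors bind E-box motifs in DNA and are the classical inducers of the transition. The genes described here are the 10 listed members of this system, Cdh1, Cdh2, Epcam, Vim, Snai1, Snai2, Zeb1, Zeb2, Twist1 and Twist2. They were matched by gene symbol to a list of the pathway, and all 10 were found among the 24191 genes of the deposited table.

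The knockout group was J1 mouse embryonic stem cells of genotype Mettl5 -/- (3 libraries), and the wild-type (WT) group was J1 cells with intact Mettl5 (3 libraries). METTL5 places N6-methyladenosine on 18S ribosomal RNA, and the study asked how its loss bears on pluripotency and developmental programmes. Both groups were kept for 7 days in serum with LIF, a cytokine that holds these cells undifferentiated, and polyA RNA was sequenced. The labels do not say how many knockout clones were used or whether replicates were separate cultures, so p-values measure the spread between these libraries, which may be technical. Scaled reads summed to between 51500000 and 51830000 in knockout libraries and between 46077000 and 46541000 in WT libraries. Mettl5 itself was at 3.65, 3.58 and 3.32 TPM-scale units in knockout libraries, against 50.3, 48.6 and 48.7 in WT libraries. Markers of embryonic stem cells were abundant in both groups. The 6 genes summed to 4623 to 5059 TPM-scale units in knockout and 4687 to 5089 in WT libraries, mostly from Dppa5a and Pou5f1. Of the 6, 1 was called higher, Dppa5a (log2 fold change 0.31). Called lower were 4, Sox2 (-0.58), Utf1 (-0.52), Tdgf1 (-0.46) and Pou5f1 (-0.09), and Nanog (0.04) was not called.

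Knockout cells had more N-cadherin, vimentin, SNAI1, ZEB2 and TWIST RNA, and E-cadherin RNA was higher as well. Of the 10 genes, 9 were higher and 1, Zeb1, was lower (limma on log2(scaled reads + 1), Benjamini-Hochberg adjusted p under 0.05 over all genes). Over all 24183 genes tested, 33.6% were called higher and 28.9% lower. The 10 genes were chosen with earlier results of these data known, so a difference from the shares of all genes may reflect that choice. With libraries rescaled to equal totals, 8 of the 10 were higher and 1 lower, against 26.1% and 37.8% of all genes. Chromosome centring, which subtracts in each library the median log2 level of the genes on a chromosome, gave 7 higher and 1 lower, against 26.9% and 33.7% of all genes. What it removes is the change of that median level, which can exceed the median fold change of the same genes. Centring on the median deviation of genes from their own means, chosen after seeing the data, gave 8 higher and 1 lower, against 31.7% and 29% of all genes. A log2 fold change of at least 1 was passed by 6 of the 10 (Cdh2, Vim, Snai1, Zeb2, Twist1 and Twist2), against 11.4% of all genes, and none was lower by as much, against 9.93% of all genes. The median log2 fold change was 2.01 for the 10 genes and 0.0038 for all genes tested. A cadherin switch in the usual sense pairs a gain of Cdh2 with a loss of Cdh1. That loss was not seen in the RNA, so the set is called the cadherin and EMT factor genes below. On the TPM scale the knockout and WT libraries did not overlap for any of the 10 genes; over all genes tested, knockout libraries were entirely above WT for 32.5% and entirely below for 35.7%. In bulk RNA, a change in the number of cells that express a gene and a change in its RNA per cell cannot be told apart.

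**Figure D1:**
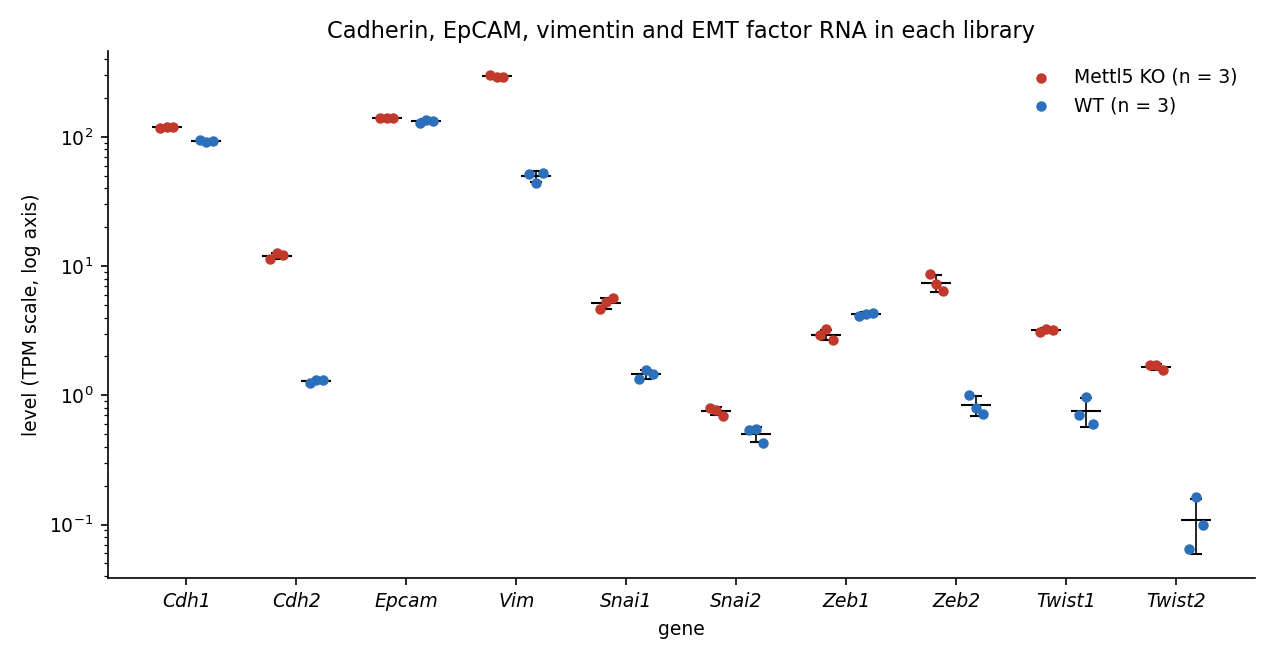
Levels of the 10 genes on the TPM scale (log axis) in each library, with 3 Mettl5 KO points left of 3 WT points for each gene; black marks are means with SD. Vim sits at 289 to 303 in knockout and 44.1 to 52.7 in WT libraries, and Zeb1 is the gene whose knockout points lie below its WT points.

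Cdh1 (ENSMUSG00000000303, mm10 chromosome 8, 106603351 to 106670246) encodes E-cadherin, the main adhesion molecule between embryonic stem cells. It was at 116, 119 and 120 TPM-scale units in knockout libraries, against 93.8, 91.5 and 93.2 in WT libraries. All 3 knockout libraries were above all 3 WT libraries, and the spread within each genotype was small. The log2 fold change was 0.40 (standard error 0.0232, limma adjusted p 4.23e-07). Of the 1218 genes tested on chromosome 8, 53.6% were lower and 15.4% higher in the knockout, with a median log2 fold change of -0.38, so Cdh1 moved against most of its chromosome. With chromosome centring the change of Cdh1 was 0.78, and with libraries rescaled to equal totals it was 0.24; it passed the threshold under both. P-cadherin, encoded by Cdh3, lies on the same chromosome with its end 46053 bases before the start of Cdh1. Cdh3 RNA fell to 7.01 ± 0.271 TPM-scale units in knockout cells, against 11.4 ± 0.133 in WT cells (SD, n = 3). As deposited, these neighbouring cadherin genes thus moved in opposite directions. The log2 fold change of Cdh3 was -0.66, in the direction of the chromosome median of -0.38, and its value with chromosome centring is not reported here.

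Cdh2 (ENSMUSG00000024304, mm10 chromosome 18, 16588877 to 16809246) encodes N-cadherin, which is typical of mesenchymal, neural and mesodermal cells. Its level was 11.4, 12.6 and 12.2 TPM-scale units in knockout libraries, against 1.25, 1.30 and 1.31 in WT libraries. Mean Cdh2 on the TPM scale was thus 9.34 times as high in the knockout, with every knockout library far above every WT library. This gave a log2 fold change of 3.27 (standard error 0.0484, limma adjusted p 8.07e-11). Chromosome 18 had a median log2 fold change of 0.21, with 47.4% of its 567 tested genes higher. Its median level differed by 0.61, so that Cdh2 was at 2.65 with chromosome centring, and at 3.02 with centring on deviations.

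E-cadherin RNA remained the larger of the pair in every library. Cdh1 exceeded Cdh2 by 10.2, 9.48 and 9.82 times TPM-scale units in knockout libraries, against 74.8, 70.2 and 71.0 times in WT libraries. The gap was therefore narrower in each knockout library than in any WT library. Cdh2 and Cdh1 lie on chromosomes 18 and 8, whose median log2 fold changes were 0.21 and -0.38. As deposited, the log2 fold changes were 3.27 for Cdh2 and 0.40 for Cdh1. With chromosome centring they were 2.65 and 0.78, so the difference between the genes was smaller. The ratios given here are not centred. The log2 ratio of Cdh2 to Cdh1 was -3.30 ± 0.0547 in the knockout and -6.17 ± 0.0483 in WT (SD, n = 3), a difference of 2.87 (exact two-sided permutation p 0.1, adjusted 0.1 over 5 pairs; 0.1 is the smallest p that 3 against 3 libraries allow). Over the 13 classical cadherin genes in the table, Cdh1 made up 82.4%, 81.5% and 81.3% of the summed TPM-scale level in knockout libraries, against 83.8%, 84.1% and 84.5% in WT libraries. Cdh2 contributed 8.05%, 8.60% and 8.29% in the knockout, against 1.12%, 1.20% and 1.19% in WT. The share of Cdh3 was 4.75%, 4.96% and 4.80% in the knockout, against 10.2%, 10.4% and 10.5% in WT. The second place after E-cadherin was thus held by N-cadherin in knockout and by P-cadherin in WT libraries.

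Epcam (ENSMUSG00000045394, mm10 chromosome 17, 87635979 to 87651129) encodes an epithelial surface glycoprotein that is also high on embryonic stem cells. Its level was 139, 141 and 140 TPM-scale units in knockout libraries, against 128, 136 and 134 in WT libraries. The groups lay close together, and the highest WT library was just under the lowest knockout library. Its log2 fold change of 0.15 (standard error 0.0312, limma adjusted p 0.00229) became -0.0067 (adjusted p 0.852) with libraries rescaled to equal totals and -0.035 (adjusted p 0.529) with chromosome centring. Centring on deviations left it at 0.07 (adjusted p 0.0632). The direction and the call of Epcam thus rests on how the libraries are scaled.

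Vim (ENSMUSG00000026728, mm10 chromosome 2, 13573927 to 13582826) encodes vimentin, the intermediate filament protein of mesenchymal cells. It was at 303, 289 and 292 TPM-scale units in knockout libraries, against 51.7, 44.1 and 52.7 in WT libraries. Already well expressed in WT, it was 5.94 times as high in the mean of the knockout libraries and was the most abundant of the 10 genes there. The log2 fold change was 2.63 (standard error 0.0609, limma adjusted p 1.1e-09). The ratio of Vim to Epcam on the TPM scale was 2.17, 2.05 and 2.08 in knockout libraries, against 0.405, 0.324 and 0.394 in WT libraries. Vimentin RNA exceeded Epcam RNA in every knockout library and was below it in every WT library, a difference of 2.49 in log2 ratio (exact two-sided permutation p 0.1, adjusted 0.1 over 5 pairs).

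Markers of other cell types moved in the same libraries, and their part in these results was not tested. Of 11 fibroblast markers, 8 were higher, 2 (Thy1 and Pdgfra) lower and 1 not called, and their summed TPM-scale level was 36.8 to 38.4 in knockout and 17.8 to 20.7 in WT libraries. Col1a1, the main fibrillar collagen gene of fibroblasts, was at 17.7 ± 0.444 in knockout and 0.694 ± 0.316 in WT cells, and Lum was listed at 0 in 1 WT library (SD, n = 3). Primitive streak, mesoderm and smooth muscle markers summed to 1088 to 1103 in knockout and 25.2 to 26.5 in WT libraries, with 4 of 7 higher and 1 lower. Most of that sum was Tagln (mean 732 in knockout and 16.7 in WT) and Acta2 (234 and 3.10). The mesoderm gene Tbx6 was the one called lower, and Mesp1 and Myh11 were not called. Trophectoderm and simple epithelium markers summed to 1643 to 1696 in knockout and 62.6 to 64.2 in WT libraries, with 5 of 6 higher and none lower (Elf5, the one not called, had an unadjusted limma p of 0.128). Most of that sum was the keratin genes Krt8 (mean 782 in knockout and 29.4 in WT) and Krt18 (737 and 20.9). Neural markers went the other way in sum, at 56.0 to 57.4 in knockout and 84.8 to 85.7 in WT libraries, with 2 of 7 tested higher and 2 lower. Most of that sum was Tubb3 (mean 51.6 in knockout and 80.1 in WT). Endothelial and blood markers summed to 12.6 to 13.3 in knockout and 30.1 to 32.7 in WT libraries, with 1 of 4 tested higher and 1 lower. Most of that sum was Pecam1 (mean 9.53 in knockout and 28.9 in WT). Over all genes tested, 33.6% were called higher and 28.9% lower. The marker lists, too, were chosen with earlier results of these data known.

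Snai1 (ENSMUSG00000042821, mm10 chromosome 2, 167538195 to 167542814) encodes SNAIL, a zinc finger repressor of E-cadherin that is needed for the transition at the primitive streak. It was at 4.64, 5.25 and 5.68 TPM-scale units in knockout libraries, against 1.33, 1.56 and 1.47 in WT libraries. Every knockout library was well above the WT range, and the log2 fold change was 1.88 (standard error 0.0973, limma adjusted p 1.96e-07). Snai2 (ENSMUSG00000022676, mm10 chromosome 16, 14705852 to 14709385) encodes the related repressor SLUG, known from neural crest. Its level was 0.795, 0.775 and 0.697 TPM-scale units in knockout libraries, against 0.542, 0.546 and 0.424 in WT libraries. Snai2 was the lowest of the 10 genes in the knockout, and the groups were separated by a narrow gap. The log2 fold change of Snai2 was 0.63 (standard error 0.149, limma adjusted p 0.00447), and with chromosome centring it was 0.32 and no longer passed (adjusted p 0.0809). Chromosome 16 had a median log2 fold change of 0.07, while its median level differed by 0.31, and Snai2 passed with centring on deviations (0.53, adjusted p 0.0127). Snai1 exceeded Snai2 by 5.85, 6.77 and 8.14 times in knockout libraries, against 2.45, 2.87 and 3.47 times in WT libraries, a difference of 1.24 in log2 ratio (exact two-sided permutation p 0.1, adjusted 0.1 over 5 pairs).

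The ZEB factors, large zinc finger repressors with a homeodomain, went in opposite directions. Zeb1 (ENSMUSG00000024238, mm10 chromosome 18, 5591860 to 5775467) was at 2.92, 3.24 and 2.67 TPM-scale units in knockout libraries, against 4.09, 4.29 and 4.36 in WT libraries. All knockout libraries were below all WT libraries, and the log2 fold change was -0.47 (standard error 0.0850, limma adjusted p 0.000947). With chromosome centring, which took 0.61 off every gene of chromosome 18, the change of Zeb1 was -1.09, and with centring on deviations it was -0.72. Zeb2 (ENSMUSG00000026872, mm10 chromosome 2, 44983632 to 45117395), also called SIP1, was at 8.63, 7.31 and 6.37 TPM-scale units in knockout libraries, against 1.01, 0.798 and 0.719 in WT libraries. The knockout libraries varied by 15.3% and the WT libraries by 17.9% (coefficient of variation), yet the lowest knockout library was far above the highest WT library. Its log2 fold change was 3.18 (standard error 0.144, limma adjusted p 7.99e-08).

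Zeb1 was the main ZEB RNA in WT cells and Zeb2 the main one in knockout cells. The ratio of Zeb1 to Zeb2 on the TPM scale was 0.339, 0.443 and 0.420 in knockout libraries, against 4.05, 5.37 and 6.06 in WT libraries. No knockout library came near the WT range, and the log2 ratio differed by -3.68 (exact two-sided permutation p 0.1, adjusted 0.1 over 5 pairs). The antisense transcript gene Zeb2os overlaps Zeb2, and no source used here states the strand setting of the quantification. Zeb2os was at 0.273 ± 0.115 TPM-scale units in knockout and 0.541 ± 0.770 in WT cells (SD, n = 3) and was not called (limma adjusted p 0.947).

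Twist1 (ENSMUSG00000035799, mm10 chromosome 12, 33957671 to 33959829) encodes a basic helix-loop-helix factor of mesoderm and cranial mesenchyme. It was at 3.09, 3.27 and 3.23 TPM-scale units in knockout libraries, against 0.703, 0.968 and 0.598 in WT libraries. Knockout libraries were nearly alike and all above WT, with a log2 fold change of 2.15 (standard error 0.161, limma adjusted p 2.4e-06). Twist2 (ENSMUSG00000007805, mm10 chromosome 1, 91801461 to 91848028) encodes its close relative, known from dermal mesenchyme. Its level was 1.71, 1.72 and 1.57 TPM-scale units in knockout libraries, against 0.0649, 0.163 and 0.0993 in WT libraries. Twist2 was the lowest of the 10 genes in WT, where it rested on 6.60, 16.6 and 10.1 scaled reads, so its fold change is the least precise. The log2 fold change was 3.95 (standard error 0.278, limma adjusted p 1.57e-06). With the TPM scale and a pseudocount of 1 it was 1.27 and still passed, a scale on which changes of low genes are compressed.

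Both TWIST genes were higher in the knockout, and their balance differed. Twist1 exceeded Twist2 by 1.81, 1.90 and 2.06 times in knockout libraries, against 10.8, 5.94 and 6.02 times in WT libraries. The ranges did not overlap, and the log2 ratio differed by -1.93 (exact two-sided permutation p 0.1, adjusted 0.1 over 5 pairs). With 0.1 added to both levels the difference was -1.14. The antisense gene Gm29100 overlaps the start of Twist2. It was also called higher (log2 fold change 2.29, limma adjusted p 0.00879), at 0.0504 ± 0.0163 TPM-scale units in knockout and 0.00957 ± 0.00861 in WT cells (SD, n = 3). Without a stated strand setting, reads of Twist2 and Gm29100 cannot be told apart where they overlap.

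**Figure D2:**
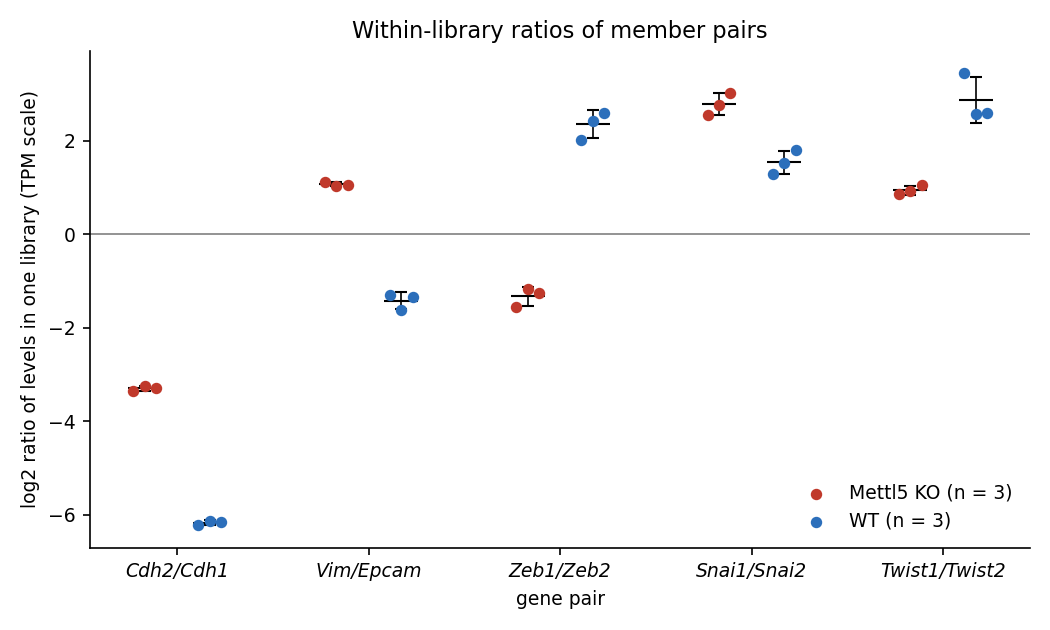
Log2 ratio of the levels of 2 genes within each library (TPM scale), which does not depend on library scaling, with 3 Mettl5 KO points left of 3 WT points for each pair; black marks are means with SD. The Zeb1/Zeb2 and Vim/Epcam ratios lie on opposite sides of 0 in the genotypes, while Cdh2/Cdh1 stays below 0 in both. Shifts of whole chromosomes are not removed from these ratios.

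The 6 repressor and activator genes together summed to 21.8, 21.6 and 20.2 TPM-scale units in knockout libraries, against 7.74, 8.32 and 7.67 in WT libraries. Zeb2 was the largest part of that sum in the knockout, at 39.6%, 33.9% and 31.5%, against 13.1%, 9.59% and 9.38% in WT. Zeb1 accounted for 13.4%, 15.0% and 13.2% in the knockout, against 52.9%, 51.5% and 56.8% in WT. Factor RNA was thus more abundant in every knockout library and differently composed. Over all 10 genes, the order of mean levels in knockout cells was Vim, Epcam, Cdh1, Cdh2, Zeb2, Snai1, Twist1, Zeb1, Twist2 and Snai2, and the libraries of neighbours overlapped for Twist1 and Zeb1. In WT cells it was Epcam, Cdh1, Vim, Zeb1, Snai1, Cdh2, Zeb2, Twist1, Snai2 and Twist2, and the libraries of neighbours overlapped for Zeb2 and Twist1.

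The sequences upstream of 3 of the genes are shown because SNAI and ZEB proteins act through the E-box CAGGTG, which also reads CACCTG on the other strand. The 250 bases before the RefSeq start site (GRCm38.p6) were searched on both strands for CAGGTG and for the broader E-box CANNTG, which includes it. RefSeq promoters were found for 6 of the 10 genes, and Cdh1, Cdh2, Snai2 and Zeb1 could not be searched. CAGGTG was present in 2 of them, Epcam and Snai1, and in 17.1% of 27025 genes searched in the same way; CANNTG was present in 66% of those genes. Epcam (chr17:87635729-87635978, plus strand) has a match that begins at position -187 and another at -19 relative to the start site. Snai1 (chr2:167537945-167538194, plus strand) has 1 match, which begins at -126. The window of Zeb2 at the first RefSeq start site listed (chr2:45117443-45117692, minus strand), the most abundant of the factors in the knockout, holds neither motif. The windows of Vim, Twist1 and Twist2 and the other listed Zeb2 start sites hold neither motif as well. Capitals mark CAGGTG or CACCTG, and each line reads 5′ to 3′ towards the start site.
Epcam: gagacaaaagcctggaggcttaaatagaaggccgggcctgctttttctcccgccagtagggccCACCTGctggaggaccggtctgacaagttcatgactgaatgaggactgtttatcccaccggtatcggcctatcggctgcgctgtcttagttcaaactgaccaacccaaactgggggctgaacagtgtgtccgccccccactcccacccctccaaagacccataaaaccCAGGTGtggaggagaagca
Snai1: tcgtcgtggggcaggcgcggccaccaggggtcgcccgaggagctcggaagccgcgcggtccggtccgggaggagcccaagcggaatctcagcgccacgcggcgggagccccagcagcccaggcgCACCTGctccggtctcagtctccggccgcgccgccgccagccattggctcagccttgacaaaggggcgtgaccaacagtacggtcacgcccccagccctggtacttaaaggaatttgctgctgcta
Zeb2: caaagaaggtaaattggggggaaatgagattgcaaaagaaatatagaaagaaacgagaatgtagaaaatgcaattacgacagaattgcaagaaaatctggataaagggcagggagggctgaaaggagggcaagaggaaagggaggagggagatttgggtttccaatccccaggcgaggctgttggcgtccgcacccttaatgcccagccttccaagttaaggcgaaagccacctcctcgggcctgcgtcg
A match describes the letters in these windows only. Binding or repression at any match was not tested.

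**Figure D3:**
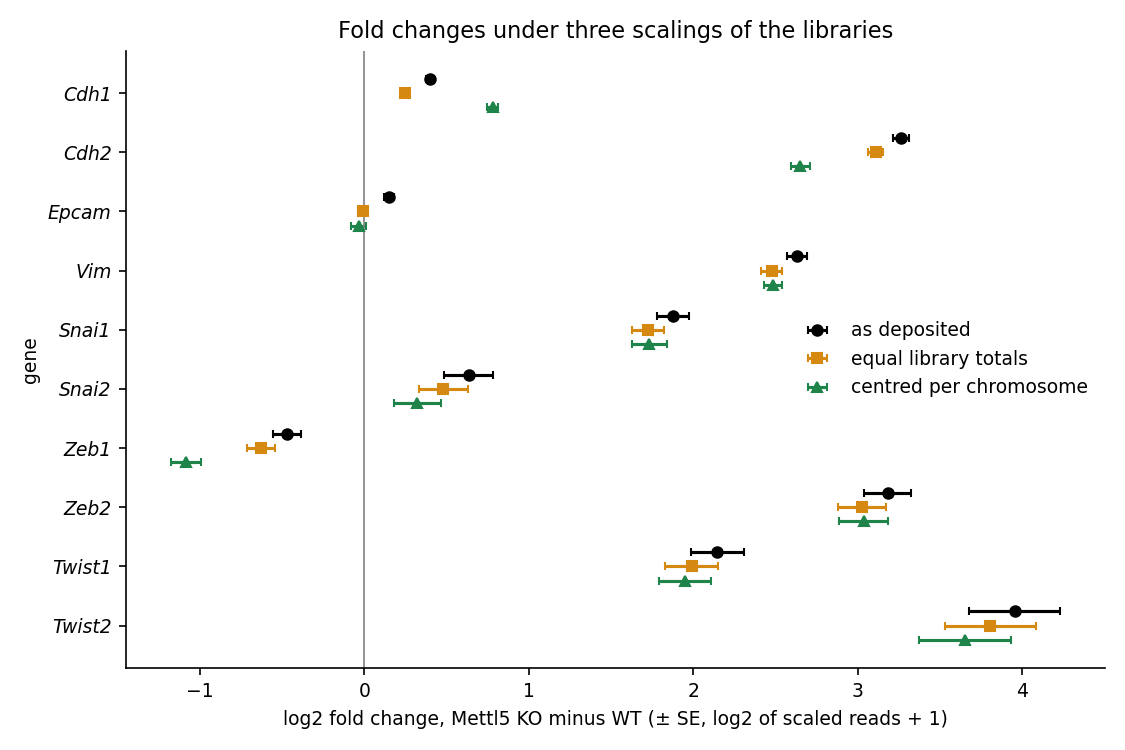
Log2 fold change, Mettl5 KO minus WT, of each of the 10 genes with its SE (log2 of scaled reads + 1), with libraries as deposited, rescaled to equal totals and centred per chromosome. Epcam crosses 0 with the scaling, Cdh1 stays above 0 and Zeb1 below 0 in all 3, and Cdh2, Vim, Zeb2 and Twist2 stay above 2.

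Catenins, which tie cadherin tails to actin, were mostly higher in the knockout. Of 9 measured catenin, p120 family and vinculin genes, 7 were higher and 1 lower, with a median log2 fold change of 0.39. With chromosome centring 5 were higher and 1 lower. For this list and those below, the shares over all genes tested were 33.6% higher and 28.9% lower. The lists were chosen with earlier results of these data known, so a difference from these shares may reflect that choice. Vcl (vinculin), which is recruited to junctions under tension, rose by 1.77, Ctnnd1 (p120 catenin), which stabilises cadherins at the surface, by 0.81 and Ctnna1 (alpha-E-catenin) by 0.70. Arvcf, a p120 relative, fell by 0.79 (limma adjusted p 2.52e-06). Ctnna1 reached 176 ± 2.17 TPM-scale units in knockout cells, against 112 ± 1.51 in WT cells (SD, n = 3). It lies on chromosome 18, where chromosome centring took 0.61 off every gene and centring on deviations took 0.25. The median log2 fold change of that chromosome was 0.21.

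Of 16 other classical cadherin genes, 11 were in the table. Of these, 5 (45.5%) were higher and 3 (27.3%) lower (median 0.54), against 33.6% and 28.9% of all genes. Cdh11, a cadherin of mesenchymal and bone-forming cells, rose by 3.81 and Cdh10, a type II cadherin, by 2.51, both at low levels of 0.540 ± 0.112 and 2.26 ± 0.0115 TPM-scale units in knockout cells (SD, n = 3). Cdh15, the muscle cadherin, had a log2 fold change of -2.39 and Cdh3 one of -0.66. The largest limma adjusted p among these 4 was 1.5e-06, for Cdh11. Cdh11, Cdh15 and Cdh3 all lie on chromosome 8, as does Cdh1.

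Epithelial junction genes rose along with the mesenchymal markers. Of 21 tight junction and polarity genes, 19 were higher and 2 (Tjp3 and Pard3) lower, with a median log2 fold change of 0.77, and these counts were the same with equal totals and with chromosome centring. The claudin genes Cldn6 and Cldn4, which form tight junction strands, rose by 2.01 and 1.90, Cgn (cingulin) by 1.07 and Lsr, of the tricellular junction, by 1.04. Cldn6 reached 134 ± 2.78 TPM-scale units in knockout cells, against 34.6 ± 1.23 in WT cells (SD, n = 3; limma adjusted p 1.34e-10). Among 15 epithelial regulators and surface protease genes, 11 were higher and 1 (Grhl3) lower, with a median of 0.98. Prss8 (prostasin) and St14 (matriptase), which form an epithelial protease cascade, rose by 2.02 and 1.47, Ap1m2, an adaptor of basolateral sorting, by 1.35 and Esrp1, which sets epithelial splicing, by 1.06.

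Of 16 other transcription factor genes known to act in EMT, 10 were higher and 2 lower, and the median log2 fold change was 0.90. With equal totals and with chromosome centring 10 were higher and 4 lower. Id2, Id3 and Id1, which block E-protein and TWIST dimers and respond to BMP signals, rose by 3.26, 3.03 and 1.43, and the mesenchymal homeobox gene Prrx2 rose by 2.87. Prrx2 was at 18.6 ± 1.03 TPM-scale units in knockout cells, against 2.66 ± 0.174 in WT cells (SD, n = 3; limma adjusted p 2.69e-09). Snai3, the third SNAI gene, had a log2 fold change of -0.09 and was not called (limma adjusted p 0.264).

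Genes for corepressors and degradation factors of SNAI and ZEB proteins had small changes. Of 16, 8 were higher and 4 lower (median 0.15), while chromosome centring gave 5 higher and 4 lower. Equal totals gave 6 higher and 7 lower, against 26.1% and 37.8% of all genes. Ajuba, a LIM protein that joins SNAI factors, rose by 0.69, the kinase gene Gsk3b, which marks SNAIL for degradation, by 0.57 and Hdac1, a histone deacetylase, by 0.28, whereas Btrc, the ubiquitin ligase subunit that follows GSK3, fell by 0.37 (limma adjusted p 8.8e-06). Ajuba and Gsk3b were called with the same direction under all 16 alternative settings.

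Other filament genes of the vimentin class were divided. Of 10 type III and IV genes, 3 (30.0%) were higher and 4 (40.0%) lower (median -0.19), against 33.6% and 28.9% of all genes. With equal totals 7 were lower, against 37.8% of all genes. Nefm, Nes (nestin) and Nefl rose by 2.97, 2.51 and 2.21, while Nefh, the heavy neurofilament gene, had a log2 fold change of -1.54. Nes was at 20.3 ± 0.291 TPM-scale units in knockout cells and 3.67 ± 0.183 in WT cells (SD, n = 3), far below Vim. Desmin (Des), a type III relative of vimentin in muscle, fell by 0.63.

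**Figure D4:**
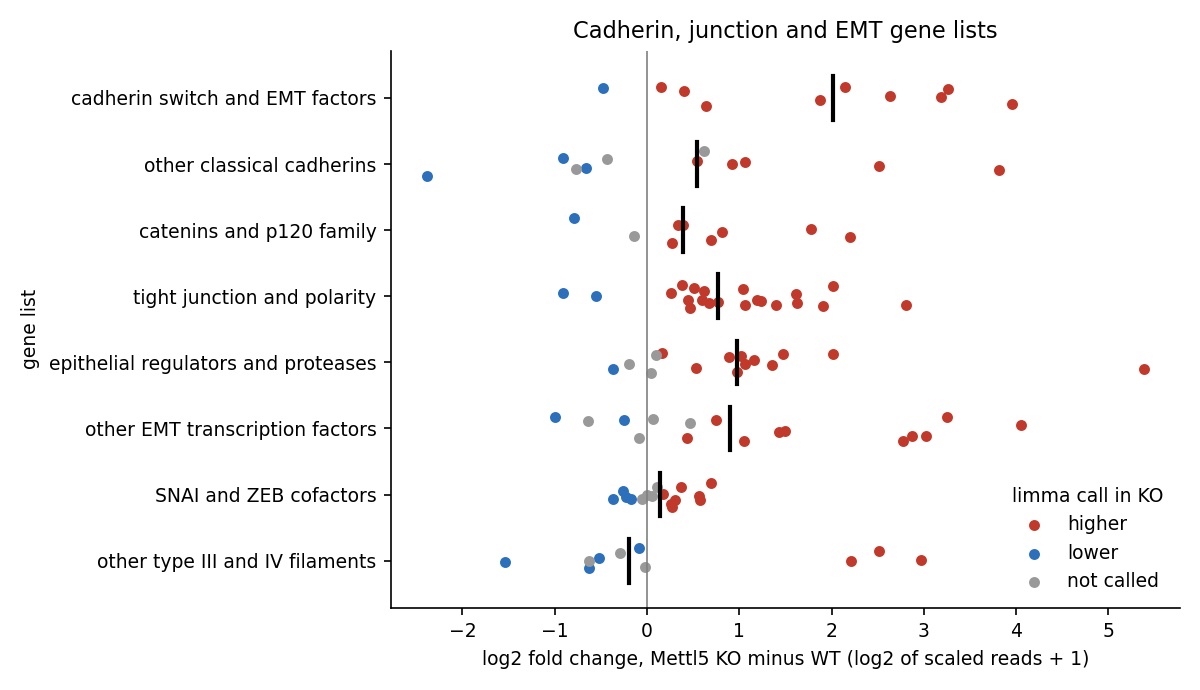
Log2 fold change, Mettl5 KO minus WT, of every tested gene in 8 lists, coloured by limma call (adjusted p under 0.05); black bars are list medians and vertical positions within a list are spread at random. Of the tight junction and polarity genes, 19 of 21 are called higher, whereas the filament and cofactor lists lie on both sides of 0.

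By level across all 6 libraries, the genes most like Cdh1 among 17171 other protein-coding genes were Ppp5c, Rrm2 and Sf3a3, with root-mean-square differences of log2(TPM scale + 1) of 0.026, 0.0316 and 0.042. Those most like Cdh2 were Dsc2, which encodes the desmosomal cadherin desmocollin 2, Irs2 and Lhfp, at 0.0767, 0.0804 and 0.133. Dsc2 was at 11.7, 12.0 and 11.6 TPM-scale units in knockout libraries, against 1.14, 1.37 and 1.11 in WT libraries, so its levels lay close to those of Cdh2 in both genotypes.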

How the data were processed

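PolyA RNA was selected with oligo dT beads and stranded libraries were made, per the labels' protocols. The submitters' processing notes name kallisto, sleuth and mm10. No version, transcript set or strand option is given in the sources used here. The authors deposited 2 signal columns per gene and library, which the file headers name scaled reads per base and TPM. The first is called scaled reads here. Neither holds whole counts, and the TPM signal summed to 1019930 to 1022473 in knockout and 969838 to 978167 in WT libraries, so it is called the TPM scale. Fragments per library were not analysed here.

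Libraries were grouped by their titles. Genes averaging 1 scaled read or more were tested with limma 3.58.1 (R 4.3.3, intensity trend) on log2(scaled reads + 1), knockout minus WT, adjusted by Benjamini-Hochberg over all genes. Such fold changes understate changes of low genes. Levels, which can be compared between genes, are on the TPM scale. Names and coordinates came from GENCODE M21 (GRCm38), which named 23846 identifiers, and promoters from RefSeq; pandas 2.3.3 was used. No gene of the 10 shared identical values with another gene. The 10 genes and the lists were chosen with earlier results of these data known; from each list up to 4 genes with the smallest p-values are named, and others, such as those few called lower, were named after their values were seen. Pals1 was matched by its synonym Mpp5.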

Additional observations from a re-analysis of the deposited data

How the results depend on the processing

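Each of the 10 fold changes was recomputed under 16 alternatives: equal totals, chromosome centring on the median level or, added after seeing the data, on the median deviation, the TPM column, no filter, a mean of at least 20 scaled reads, pseudocounts of 0.1 and 10, voom weights, a replicate block, and each library left out. Of 160 values, 156 kept their direction and their side of the threshold. For many of these the direction could not change. No gene of the 10 had overlapping genotypes, so fits without 1 library could not reverse it. The fits with no filter, a mean of at least 20 scaled reads or a replicate block return the same fold change. Only the call could move in these fits. The value of Epcam was -0.0067 under equal totals, -0.035 under chromosome centring and 0.074 (adjusted p 0.0632) under centring on deviations, and Snai2 fell to 0.32 (adjusted p 0.0809) with chromosome centring. With the TPM column and a pseudocount of 1, Snai2 was 0.22, Twist1 1.26 and Twist2 1.27, all still called. Equal totals moved the median of all genes by -0.15 and chromosome centring by -0.11. The cause was not tested for either gene. Equal totals gave 6309 genes higher and 9147 lower, against 8137 and 6998 as deposited. Same-numbered libraries did not deviate together (correlations of 0.0066, 0.0108 and 0.0316), so no pairing by number was seen. With 3 libraries per genotype, such correlations cannot exclude a pairing. The replicate block gave 8183 genes higher and 6927 lower and changed no call among the 10. The direction of all 5 gene pair ratios was kept in 40 of 40 recomputations. Leaving out a library could not reverse it, because the ratios of the genotypes did not overlap for any pair. Chromosome centring was not applied to the ratios. Twist1/Twist2 was at -1.14 for a pseudocount of 0.1 and at -2.07 to -1.64 with libraries left out. Of 416 counts in gene lists, 397 stayed within 1.5 times. In WT, Twist2 rested on few scaled reads, and 3 libraries per genotype cannot give an exact permutation p below 0.1.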
